A study of Mus musculus with 10 samples.

Results

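The type II hard keratins are the basic partners in the filaments of nail and hair. Their genes were taken by name, Krt81 to Krt87, in the authors' table of protein-coding genes, and 5 of the 7 names had a row there (Krt81, Krt82, Krt83, Krt84 and Krt86). A sixth gene of the family is listed in that table as 5430421N21Rik (ENSMUSG00000067613), which GENCODE M21 calls Krt83, while M21 calls the authors' Krt83 (ENSMUSG00000047641) Krt87. The 6 genes described here are written with the authors' names, out of 55416 genes in each library file and 21729 in the protein-coding table. All 6 passed the filter on low counts.

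RNA was sequenced from the regenerating tissue (blastema) of amputated hindlimb digit tips of mice on a mixed CD1 and C57Bl/6 background. Wild type mice were compared with ΔLARM1/2 mutants, which lack the limb enhancers LARM1 and LARM2 of Lmx1b, the gene for a LIM homeodomain factor that specifies dorsal limb fate. Digits were collected at 12 dpa (days post amputation; mice 33 days old) or 14 dpa (35 days old). On either day the wild type had 2 libraries and the mutant 3, and each of the 10 libraries pooled 6 amputated central digits, so that it averages over digits. The series calls the libraries biological replicates, but the labels do not say that each came from its own mouse. The p-values therefore weigh a difference against the spread between libraries of a group, which may not be the spread between mice.

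Hard keratins form filaments only as pairs of 1 type I (acidic) and 1 type II (basic) chain. They are made by the differentiating cells of the nail matrix and hair cortex, where keratin-associated proteins later crosslink the filaments into a hard plate or shaft. The keratins of ordinary epidermis, such as Krt5 and Krt1, belong to the same type II cluster on mouse chromosome 15 but build softer tissue.

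The libraries held between 69998104 and 101632364 expected counts. Protein-coding genes took 81.5% to 91.0% of counts in wild type and 90.9% to 93.6% in mutant libraries, with the lowest share in wild type 14 dpa replicate 1. The library titled mutant 14 dpa replicate 1 carries the genotype tag WT in 1 label field, while its title and description call it mutant, and it was used as mutant. Its levels of Krt81, Krt83, Krt86 and 5430421N21Rik lay within the range of the other mutant libraries of both days. Among mutant libraries of 14 dpa it was the highest in Krt81 (8.08 TPM), Krt83 (38.8 TPM) and 5430421N21Rik (3.58 TPM). These genes are the subject here, so they cannot decide its label. Results with and without it are given below. The summed level of 12 keratinocyte markers was 15084 to 20175 TPM (transcript abundance scaled to gene length and to the library's total) in wild type and 29894 to 49531 TPM in mutant libraries, and that of 6 connective tissue markers was 1999.5 to 3580.1 TPM and 423 to 1779 TPM, with no marker of either list at 0. The values of 49531 and 423 TPM were both those of the library tagged WT. Of 5 measured markers of hard-keratinizing cells (Hoxc13, Krt31, Krt35, Gprc5d and Tchh), the sum was 888 to 4005 TPM in wild type and 34.6 to 197.5 TPM in mutant libraries, and Gprc5d was listed at 0 in some mutant libraries. In wild type and in the mutant at 12 dpa most of that sum was Krt31, itself a hard keratin. In the mutant at 14 dpa Hoxc13 (17.55, 17.34 and 20.72 TPM) was slightly above Krt31 (16.53, 16.84 and 20.34 TPM). Hoxc13 (19.99 to 67.2 TPM in wild type, 17.3 to 41.0 TPM in mutant libraries) and Tchh (0.27 to 0.69 and 0.27 to 1.01 TPM) overlapped between genotypes in TPM. In the fit to counts Hoxc13 was lower in the mutant over both days (log2 fold change -1.10, SE 0.21, edgeR adjusted p = 0.00354) and at 14 dpa (edgeR adjusted p = 0.0159). At 12 dpa it did not pass (edgeR adjusted p = 0.0542). In bulk tissue, fewer cells of a type and less RNA per cell cannot be told apart, and the part of tissue makeup in the results below was not tested.

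The coding sequences of 4 of the genes are near copies of each other, which bears on how reads could be divided among them. Aligned over their coding regions, Krt81 was 93.6% identical to Krt86, 93.3% to 5430421N21Rik and 89.2% to Krt83, while Krt84 was 64.1% to 65.6% and Krt82 64.1% to 67.9% identical to the other genes. The stretch below, 90 bases of the same aligned coding region from the GENCODE M21 transcripts (GRCm38), is shown because it holds both a stretch that Krt81 and Krt86 share in full and the divergence of Krt84 and Krt82. Each line runs 5′ to 3′ on the coding strand, and capitals mark bases that differ from Krt81.
Krt81: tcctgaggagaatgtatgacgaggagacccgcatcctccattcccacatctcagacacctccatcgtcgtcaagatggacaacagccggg
Krt86: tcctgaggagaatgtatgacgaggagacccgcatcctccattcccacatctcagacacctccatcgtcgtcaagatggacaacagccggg
5430421N21Rik: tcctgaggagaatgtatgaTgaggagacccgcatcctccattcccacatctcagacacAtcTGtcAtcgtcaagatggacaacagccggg
Krt83: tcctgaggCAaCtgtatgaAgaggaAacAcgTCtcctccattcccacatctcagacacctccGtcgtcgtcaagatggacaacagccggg
Krt82: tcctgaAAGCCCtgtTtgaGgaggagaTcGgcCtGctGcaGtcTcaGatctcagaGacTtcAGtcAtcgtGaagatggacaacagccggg
Krt84: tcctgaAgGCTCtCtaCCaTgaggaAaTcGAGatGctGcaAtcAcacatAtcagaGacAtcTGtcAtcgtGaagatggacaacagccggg

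In this stretch Krt86 differed from Krt81 at 0 of the 90 bases, 5430421N21Rik at 5, Krt83 at 9, Krt82 at 22 and Krt84 at 25. Of all windows of 75 bases in the annotated transcripts, another annotated gene held an exact copy for 35.5% in Krt81, 33.5% in Krt86, 22.4% in Krt83 and 12.5% in 5430421N21Rik, but for 0% in Krt84 and Krt82. The expected counts of Krt82 were whole numbers in 10 of 10 libraries, and those of the other 5 genes in 0. The division of reads among Krt81, Krt83, Krt86 and 5430421N21Rik is therefore an estimate of the authors' counting, and their separate levels are uncertain. Krt84 and Krt82 share no such window. The counts of Krt84 were nonetheless not whole in any library, so some of its reads were also divided, with partners that exact windows of 75 bases do not show. In Krt83 only 11.0% of windows were shared with another of the 4, and 251 windows were shared with Gm49425, a gene outside the 4, so its level also rests on the division of reads with that gene. No source used here gives the read length.

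Of the 6 genes, 5 were lower in the mutant over both days, and Krt84 did not pass the test. Krt86, Krt81, Krt83 and 5430421N21Rik, at 474 TPM or above in every wild type library, were at 297 TPM or below in every mutant library, Krt82 fell from a trace level, and the levels of Krt84 overlapped between genotypes. Of the 20216 genes tested with edgeR's quasi-likelihood test (Benjamini-Hochberg adjusted p under 0.05), 43.7% passed in either direction, 22.2% lower and 21.5% higher. The median log2 fold change was -6.10 over the 6 genes and 0.02 over all genes tested. In 5 of the 6 genes every mutant library lay below every wild type library of its day, as it did in 19.3% of all genes tested, and in 0 of the 6 every mutant library lay above (18% of all genes tested).

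Krt86, a keratin of the hair and nail cortex, stood at 1946 and 3278 TPM in the wild type libraries at 12 dpa (replicates 1 and 2) and at 964 and 862 TPM at 14 dpa. In the mutant it stood at 7.42, 32.5 and 20.8 TPM at 12 dpa (replicates 1 to 3) and at 1.12, 0.37 and 1.57 TPM at 14 dpa. The genotypes did not overlap, and the lowest wild type library lay far above the highest mutant library. Over both days its log2 fold change (mutant over wild type) was -8.72 (SE 0.57, edgeR adjusted p = 4.36e-05), the largest decrease among the 6 genes. At 12 dpa it was -7.34 (SE 0.76, edgeR adjusted p = 0.00124) and at 14 dpa -10.10 (SE 0.85, edgeR adjusted p = 0.000561).

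Krt81, a cortex keratin whose coding sequence is the closest to that of Krt86, had 2529 and 5119 TPM in wild type at 12 dpa and 1159.7 and 1427 TPM at 14 dpa. The mutant libraries had 31.6, 118.6 and 81.1 TPM at 12 dpa and 8.08, 2.6 and 6.74 TPM at 14 dpa. Wild type 12 dpa replicate 2 was the highest library, mutant 14 dpa replicate 2 the lowest, and the genotypes did not overlap. The log2 fold change was -7.00 (SE 0.47, edgeR adjusted p = 4.36e-05) over both days, -5.95 at 12 dpa and -8.06 at 14 dpa.

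5430421N21Rik followed Krt81 at a lower level. It had 974 and 2303 TPM in wild type at 12 dpa and 474 and 588 TPM at 14 dpa, against 12.5, 40.8 and 32.6 TPM and 3.58, 0.99 and 2.94 TPM in the mutant. Here too the genotypes did not overlap, and the fold change of -7.09 (log2, SE 0.52, edgeR adjusted p = 7.29e-05) was close to that of Krt81. The ratio of Krt81 to 5430421N21Rik in TPM lay between 2.22 and 2.91 in all 10 libraries. Over the aligned coding regions 1339 of 1435 bases of the pair were identical. The share of windows of 75 bases copied in another gene was 12.5% in 5430421N21Rik, the lowest of the 4 near copies. The part of read division in this ratio was not tested.

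Krt83, also a keratin of the cortex, kept the highest residue of the 4 near copies. Its levels were 2183 and 5256 TPM in wild type at 12 dpa and 1137 and 1950.3 TPM at 14 dpa. In the mutant they were 114.9, 297 and 178 TPM at 12 dpa and 38.8, 26.2 and 30.1 TPM at 14 dpa. The genotypes did not overlap, and every mutant library held more Krt83 than Krt81. The log2 fold change was -5.19 (SE 0.31, edgeR adjusted p = 1.98e-05) over both days, -4.54 at 12 dpa and -5.84 at 14 dpa.

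Because reads could be exchanged among the near copies, their counts were also summed into 1 gene. The sum, which does not depend on how reads were divided among the 4 but does depend on the division between Krt83 and Gm49425, had a log2 fold change of -6.12 over both days (SE 0.32, edgeR adjusted p = 9.14e-06), -5.41 at 12 dpa and -6.83 at 14 dpa. Within the sum, Krt83 made up 28.6% to 40.4% in wild type and 57.0% to 86.9% in mutant libraries, and Krt86 17.9% to 25.8% and 1.23% to 6.66%, in TPM. These shares do depend on the division of reads.

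Krt82, a keratin of the hair cuticle, was the one gene of the 6 at a trace level. It had 0.75 and 0.85 TPM in wild type at 12 dpa and 0.47 and 0.45 TPM at 14 dpa, from 144, 145, 118 and 121 counts. The mutant libraries had 0.2, 0.17 and 0.16 TPM at 12 dpa and 0.11, 0.15 and 0.14 TPM at 14 dpa, from 39, 26, 26, 21, 40 and 27 counts. The genotypes did not overlap, and the log2 fold change of Krt82 was -2.27 over both days (SE 0.22, edgeR adjusted p = 0.000127), -2.46 at 12 dpa and -2.08 at 14 dpa.

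Krt84, a keratin known from nail and from the filiform papillae of the tongue, was in the opposite position. Its wild type levels were 1339 and 1965 TPM at 12 dpa and 834 and 494 TPM at 14 dpa. Its mutant levels were 1338, 2771 and 2288 TPM at 12 dpa and 1425, 582 and 1203 TPM at 14 dpa. The genotypes overlapped on both days, and the highest library was mutant 12 dpa replicate 2. The log2 fold change over both days was 0.20 (SE 0.31, 95% interval -0.50 to 0.90, edgeR adjusted p = 0.627), with 0.05 at 12 dpa (interval -0.94 to 1.03) and 0.35 at 14 dpa (interval -0.64 to 1.35). The test did not detect a difference, and the interval over both days does not reach the log2 fold change of any of the other 5 genes.

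**Figure D1:**
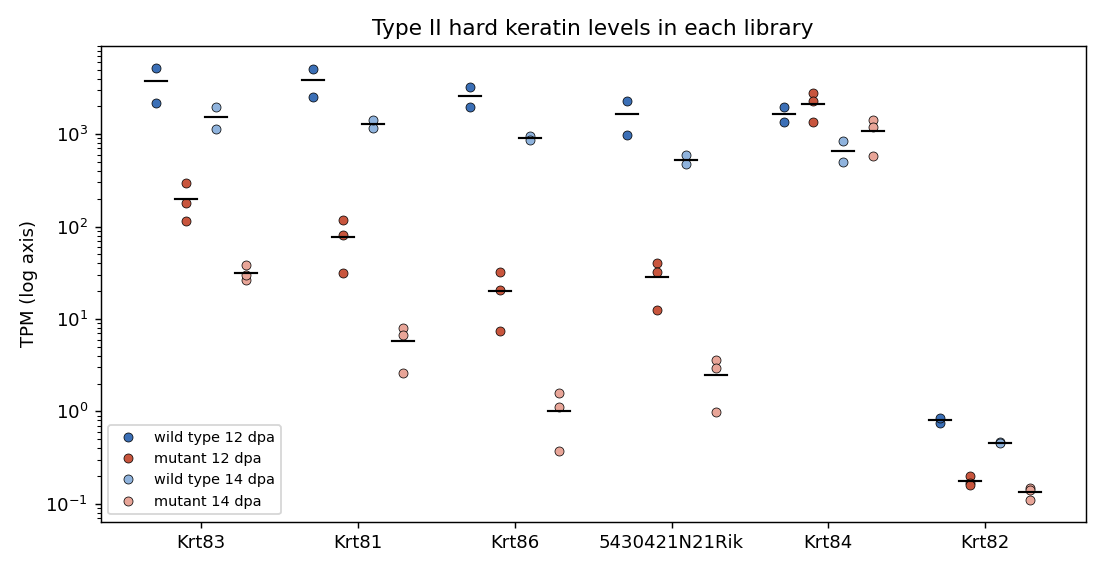
TPM on a log axis for the 6 type II hard keratin genes, 1 point per library and a line at each group mean, in wild type and mutant at 12 and 14 dpa. Mutant points lie below wild type points of the same day for Krt81, Krt83, Krt86, 5430421N21Rik and Krt82, and the groups overlap for Krt84.

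At 12 dpa, 5 of the 6 genes were lower and 0 higher, where 16.5% of all genes tested passed, 9.34% lower and 7.18% higher. At 14 dpa the same 5 were lower and 0 higher, where 33.3% of all genes passed, 17.2% lower and 16.1% higher. Treating the library tagged WT as a wild type library ended all 5 calls over both days (edgeR adjusted p = 0.0625 to 0.0702) and on each day, and 0 of the 20216 genes then passed over both days, with 5448 at an unadjusted p under 0.05. The log2 fold changes over both days were then -6.85 for Krt81 (SE 1.301), -4.97 for Krt83 (SE 0.94), -8.45 for Krt86 (SE 1.71), -6.97 for 5430421N21Rik (SE 1.34) and -1.97 for Krt82 (SE 0.46), with larger SE. At 12 dpa no library changed group, and at 14 dpa 1 library joined the 2 of wild type. The folds could therefore move little, and their closeness to those before is no support for them. Leaving that library out, or both it and wild type 14 dpa replicate 1, kept 5 genes lower.

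Over both days another scale for the libraries changed the call of Krt84 and of none of the other 5 genes. Scaled to the summed keratinocyte markers, Krt84 fell by 0.58 on the log2 scale over both days (edgeR adjusted p = 0.0390), while that scaling moved the median of all genes to -0.72, so that Krt84 lay 0.15 above the median gene. Per 100 TPM of keratinocyte markers, Krt84 stood at 6.64, 13.0, 5.25 and 3.07 TPM in wild type and at 4.35, 6.55, 7.10, 2.88, 1.95 and 3.60 TPM in the mutant, and the genotypes overlapped. The 6 genes together stood at 28.8 to 118.8 TPM per 100 in wild type and at 2.05 to 8.07 in the mutant, without overlap.

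**Figure D2:**
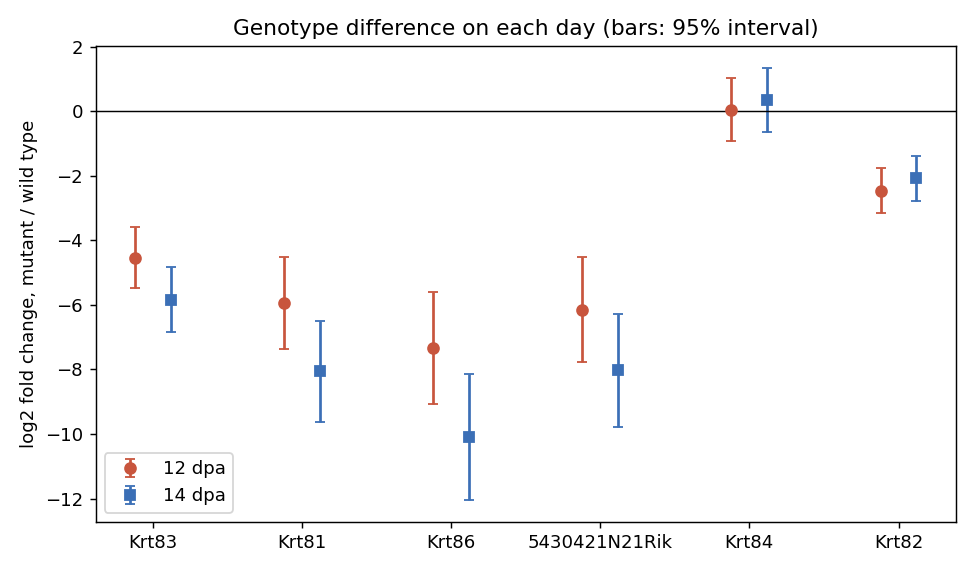
Log2 fold change of mutant over wild type at 12 dpa and 14 dpa for each gene, from edgeR, with bars giving the 95% interval. The intervals of Krt84 include 0 on both days, and those of the other 5 genes lie below 0.

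The order of the levels within the family differed between genotypes. In wild type at 12 dpa it ran Krt81 (mean 3824 TPM ± 1832 SD, n = 2), Krt83 (3720 ± 2173), Krt86 (2612 ± 942), Krt84, 5430421N21Rik and Krt82. Neighbours overlapped down to 5430421N21Rik, and Krt82 stood apart. In wild type at 14 dpa Krt83 came first (1544 TPM ± 575 SD, n = 2) and overlapped with Krt81 (1293 ± 189). Krt81 did not overlap with Krt86, nor Krt86 with Krt84, and Krt84 overlapped with 5430421N21Rik. In the mutant Krt84 came first on both days and did not overlap with Krt83, the next gene, and Krt86 came last but for Krt82.

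Expressed as shares of the summed TPM of the 6 genes, Krt84 made up 14.9% and 11.0% in wild type at 12 dpa and 18.3% and 9.29% at 14 dpa. In the mutant it made up 88.9%, 85.0% and 88.0% at 12 dpa and 96.5%, 95.04% and 96.7% at 14 dpa. The summed level itself was 8971 and 17922 TPM in wild type at 12 dpa and 4569 and 5322 TPM at 14 dpa, against 1505, 3261 and 2601 TPM and 1476, 612 and 1244 TPM in the mutant. The family in the mutant was thus made up mostly of Krt84, whose own level overlapped between genotypes. No test was made of these shares and sums.

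**Figure D3:**
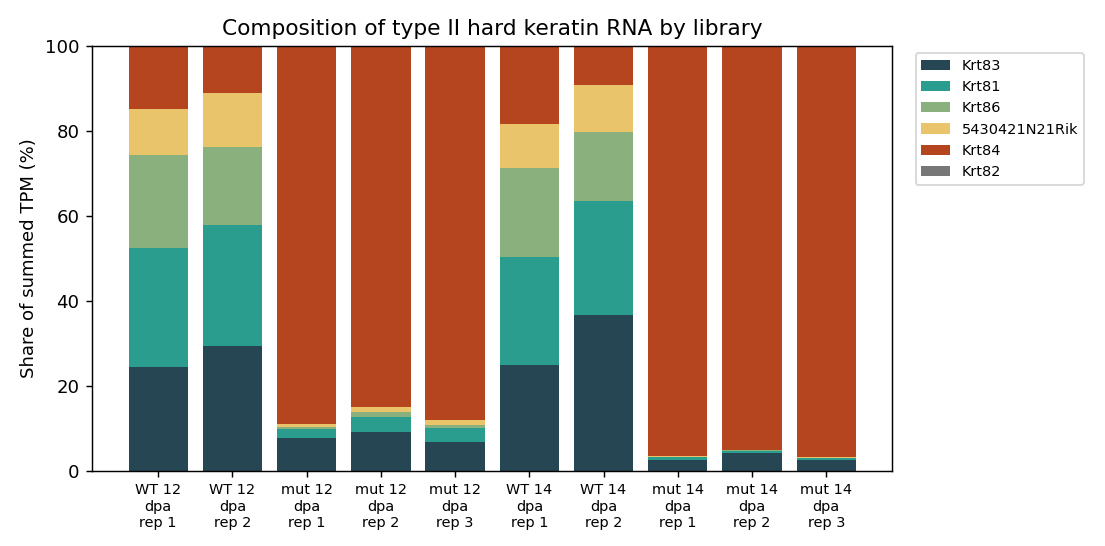
Share of the summed TPM of the 6 genes taken by each gene, 1 bar per library, from 0 to 100%. Krt84 takes 9.29% to 18.3% of the bar in wild type libraries and 85.0% to 96.7% in mutant libraries.

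No gene passed the test of a genotype difference that changed between days (0% of all genes tested, with 1763 at an unadjusted p under 0.05 and 48 called by DESeq2), and so 0 of the 6 did, with 3 at an unadjusted p under 0.05 and 0 called by DESeq2. The values were -2.76 for Krt86 (unadjusted p = 0.0164, edgeR adjusted p = 0.544), -2.12 for Krt81 (unadjusted p = 0.0272, edgeR adjusted p = 0.545) and -1.30 for Krt83 (unadjusted p = 0.0449, edgeR adjusted p = 0.565). The larger decreases seen at 14 dpa are therefore not shown to differ from those at 12 dpa.

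From 12 to 14 dpa within the mutant, 0 of the 6 genes passed edgeR's test (0.0346% of all genes did, 0.0198% lower and 0.0148% higher), with 4 at an unadjusted p under 0.05, as were 3803 of the 20216 genes tested. DESeq2 called 4 of the 6 lower and 1483 of all genes. Krt86 had a log2 change of -3.87 (SE 0.65), Krt81 of -3.31 (SE 0.55) and Krt83 of -2.21 (SE 0.37), each with an edgeR adjusted p of 0.0783, and 5430421N21Rik of -3.11 (SE 0.60, edgeR adjusted p = 0.0920). Krt84 had -0.57 (edgeR adjusted p = 0.470) and Krt82 -0.02 (edgeR adjusted p = 0.977). In wild type from 12 to 14 dpa 0 of the 6 passed (0% of all genes, with 1654 at an unadjusted p under 0.05 and 52 called by DESeq2), with 0 at an unadjusted p under 0.05 and 0 called by DESeq2. The day comparisons share libraries with the genotype comparisons.

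Among genes outside the family, the profile over the 10 libraries most like that of Krt84 was that of Krt36, a type I hard keratin (root mean square distance 0.24 between log2(CPM + 1) profiles, each centred on its mean). The next were Gm29216 (0.37) and Gm10157 (0.38). Krt81 lay nearest to Krtap9-3 (0.28), Krt34 (0.34) and Gm11562 (0.35), and 5430421N21Rik to the same 3 genes (0.33 to 0.42). Krt86 lay nearest to Krtap1-5 (0.16), Krtap4-1 (0.34) and Krt34 (0.45), and Krt83 to Krt31 (0.26), Klk15 (0.30) and Krtap8-1 (0.41). Within the family Krt81 lay 0.13 from 5430421N21Rik and 3.70 from Krt84. Krt82 lay 0.09 to 0.10 from AC141639.3, Hs3st5 and Fndc5, on a scale on which the added 1 narrows the profiles of low genes. All profiles share their libraries and depth.

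Type I hard keratins, the acidic partners, moved alongside. Of 9 tested, 8 were lower over both days and 1 did not pass. Those that passed were Krt31 (-5.38), Krt32 (-4.47), Krt33a (-11.42), Krt33b (-7.41), Krt34 (-7.72), Krt35 (-8.55) and Krt39 (-5.20), and Krt40. Krt40 had 44 counts over the wild type libraries and 0 in every mutant library, so it entered the test through wild type alone and had to differ. Against a floor of 3 counts over the mutant libraries it was at least 24.4-fold lower. The median log2 fold change of the 9 was -5.38 with Krt40 at that bound. Krt36 did not pass (-0.13, SE 0.27, edgeR adjusted p = 0.724). Its levels were 1299 and 2451 TPM in wild type at 12 dpa, 908 and 737 TPM at 14 dpa, 1312, 2539 and 1994 TPM in the mutant at 12 dpa and 1162, 623 and 1257 TPM at 14 dpa, so the genotypes overlapped. The ratio of Krt36 to Krt84 was 0.816 to 1.49 over all 10 libraries.

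The ratio of summed type I to summed type II hard keratin TPM was 0.883, 0.907, 0.973 and 1.04 in the wild type libraries. In the mutant it was 0.959, 0.880, 0.825, 0.804, 1.06 and 1.04, and the genotypes overlapped. Krt36 and Krt84 are most of both sums in the mutant, and without that pair the ratio was 0.867, 0.865, 0.947 and 0.995 in wild type and 0.787, 0.676, 0.485, 0.483, 0.795 and 0.843 in the mutant, without overlap. The sums cover the 9 type I and 6 type II genes measured here and not the whole of either family, and no test was made.

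**Figure D4:**
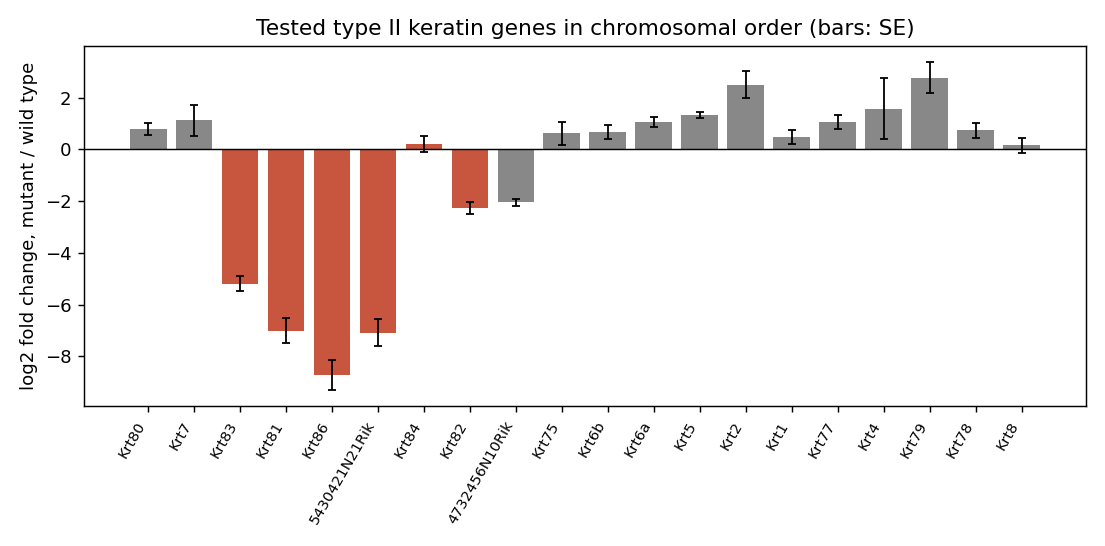
Log2 fold change of mutant over wild type over both days for the tested type II keratin genes, in chromosomal order, with error bars giving the SE and red columns marking the 6 type II hard keratins. Krt83, Krt81, Krt86 and 5430421N21Rik lie between -8.72 and -5.19, Krt84 beside 0, Krt82 at -2.27 and 4732456N10Rik at -2.05, and the other type II keratins above 0.

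The list of other type II keratins of the same cluster does not hold 4732456N10Rik, a further gene of that cluster, which was lower (-2.05). Of 18 measured and 13 tested, 6 rose, 0 fell and 7 did not pass, with a median log2 fold change of 1.06. Those that rose were Krt5 (1.32), the basal epidermal keratin, Krt2 (2.49), Krt6a (1.06), Krt77 (1.06), Krt79 (2.76) and Krt80 (0.79). The 7 that did not pass had log2 fold changes of 0.46 (Krt1), 1.57 (Krt4), 0.66 (Krt6b), 1.11 (Krt7), 0.62 (Krt75), 0.73 (Krt78) and 0.15 (Krt8). Read along the chromosome in the M21 order, Krt84 lies between 5430421N21Rik and Krt82, both of which fell.

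Keratin-associated proteins, which crosslink hard keratin filaments, were lower in all 45 that passed the filter of 58 measured, with a median of -7.26, also with the 5 that were at 0 in every mutant library set to their bounds. Genes that passed through wild type libraries alone had to differ, so this count is a description. Krtap7-1 had 3939 and 8496 TPM in wild type at 12 dpa and 294, 931 and 625 TPM in the mutant, and Krtap8-1 had 3326 and 7517 TPM against 159, 601 and 273 TPM. Of 6 shaft and plate genes 4 fell, 1 rose and 1 did not pass. Among the 4 was Gprc5d, which passed the count filter through wild type libraries alone and had to differ. Gprc5d, an orphan receptor of hard-keratinizing cells, had 136 and 461 TPM in wild type at 12 dpa and at most 0.02 TPM in every mutant library, and Dsg4, a desmosomal cadherin of the shaft, fell by 4.26 on the log2 scale. Tgm3, a transglutaminase, rose (0.58, SE 0.19), and Tchh, which encodes trichohyalin, was at -0.22 (SE 0.19).

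Of 12 genes listed as regulators of nail and hair, 8 fell, 3 rose and 1 did not pass, with a median of -0.95. Their action on keratin genes was not tested. The largest decreases were those of Lef1, a transcription factor of the Wnt pathway (-4.47, SE 0.44, edgeR adjusted p = 0.00023), and Msx2, a homeobox factor (-2.98, SE 0.33, edgeR adjusted p = 0.000389). The largest increases were those of Lgr6, a receptor for R-spondins (0.997, SE 0.25), and Gata3, a zinc finger factor (0.90, SE 0.21). Lef1 levels were 2 and 6.45 TPM in wild type at 12 dpa and 0.29, 0.27 and 0.23 TPM in the mutant. Of 12 keratinocyte markers 9 rose, most of all Krt15 (2.40) and Krt5, 1 fell (Itga6, -0.52) and 2 did not pass, among them Itgb4 (-0.18). Of 6 connective tissue markers 5 fell, most of all Col1a2 (-1.73) and Col1a1 (-1.67), least Pdgfra (-0.89), and Dcn (-0.58) did not pass. Krt5 and Krt1 are in both the keratinocyte list and that of other type II keratins.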

How the data were processed

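The authors deposited, for each of 10 libraries, expected counts and TPM per gene, and 1 TPM table of protein-coding genes, whose values were the same as those of the library files. The submitters' processing notes name STAR 2.7.8a, RSEM 1.3.0, FastQC and GRCm39, and no role or order is given. RNA was extracted with a column kit and libraries were made with a stranded total RNA kit, per the labels' protocols. Gene names came from the authors' table for 21727 of 55416 IDs and from GENCODE M21 for 30406, with 3283 unnamed. One named member is not reported here.

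Expected counts (13.9% not whole) were rounded and fitted with edgeR 4.0.16 (R 4.3.3, filterByExpr with a minimum count of 10, TMM, robust quasi-likelihood, 4 group means, all 10 libraries), with Benjamini-Hochberg adjustment over all tested genes at 0.05. The fit was also run on simulated counts in which all genes had the same dispersion. That setting is simpler than these data, so the run checks the code only. Alternatives used DESeq2 1.42.0, limma 3.58.1, log2(TPM + 1) and log2(TPM + 0.1), other filters and scalings, a replicate block, and omission of libraries. Planned permutation tests of sums, ratios and shares were not run, and these are descriptions. Named genes were all members, the tested type I hard and other type II keratins, the 2 largest and 2 smallest changes of each other list, the 2 keratin-associated proteins highest in wild type, and the 3 nearest profiles. Members and lists were chosen with earlier results of these data known. No pair of replicates looked like 1 library deposited under 2 labels (chi-square per degree of freedom 125.1 to 243.5), which does not bear on whether they came from separate mice. Wild type 14 dpa titles and descriptions number the replicates in opposite order, and titles were used. No source used here states how strand entered the counting.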

Additional observations from a re-analysis of the deposited data

How the results depend on the processing

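Over both days and on each day, 5 genes were lower under every other tool, filter, normalization and left-out library, with 2 exceptions. Treating the library tagged WT as wild type gave 0 lower in each of the 3 comparisons, with larger errors and with folds that it could move little (Krt86 at -8.45 over both days, -7.34 at 12 dpa and -9.55 at 14 dpa). It moved the share differences (mutant minus wild type) of Krt81 to -21.3, Krt83 to -18.5, Krt84 to 64.4, Krt86 to -15.8 and 5430421N21Rik to -8.88 percentage points, and the log2 difference per keratinocyte TPM to -2.90. Keratinocyte scaling gave 6 lower over both days, with Krt84 at -0.58 (-0.62 at 12 dpa and -0.54 at 14 dpa). From 12 to 14 dpa in the mutant, 4 genes were lower with DESeq2 (1483 of all genes called in either direction, against 7 with edgeR) and with either TPM pseudocount (313 and 337), 2 with keratinocyte scaling (68) and 0 to 1 when a library was left out (1 without mutant 12 dpa replicate 1).

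The undetected change of Krt84 turned sign: with the tagged library as wild type it was -0.051 over both days, -0.15 at 14 dpa and -0.19 by day. When a library was left out it ranged from -0.065 to 0.55 over both days, from -0.17 to 1.05 at 14 dpa and from -0.20 to 1.002 by day, the lowest without wild type 14 dpa replicate 2 and the highest without wild type 14 dpa replicate 1. At 12 dpa it ranged from -0.17 to 0.26 (-0.12 without wild type replicate 1, -0.17 without mutant replicate 2). Krt82 from 12 to 14 dpa in the mutant became 0.12 with the tagged library as wild type, -0.16 to 0.15 when a library was left out (0.12 without mutant 14 dpa replicate 1, 0.15 without mutant 12 dpa replicate 1) and 0.12 without both doubted libraries, an alternative added once the data had been seen. The type I to type II ratio (log2, -0.04) became 0.077 with the tagged library as wild type and lay between -0.076 and 0.023 when a library was left out. The cause was not tested.

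With the replicate number as a block, 5 genes were lower in each comparison, Krt84 at 12 dpa was -0.00361, and all genes called went from 8843 to 6972 over both days, from 3339 to 1927 at 12 dpa and from 6728 to 4892 at 14 dpa. Same-numbered libraries deviated with correlations of -0.12 to 0.09, and differently numbered ones with -0.09 to 0.15. In a group of 2 libraries the deviations mirror each other, and the numbering of wild type 14 dpa differs between titles and descriptions. These correlations therefore cannot decide whether same-numbered libraries share more than a number. With log2(TPM + 1), Krt82 was at -0.49 over both days, since the pseudocount exceeds its level. With 2 or 3 libraries a group, the interval of Krt84 spans more than 1 log2 unit.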

Other observations

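A type II keratin gene of the same cluster, listed as 4732456N10Rik and called Krt90 in GENCODE M21, was chosen after its values were seen. It had 2432 and 2832 TPM in wild type at 12 dpa and 1384 and 1511 TPM at 14 dpa, and 549, 531 and 798 TPM and 477, 620 and 502 TPM in the mutant. The genotypes did not overlap, and its log2 fold change over both days was -2.05 (SE 0.14, edgeR adjusted p = 3.29e-05), smaller in size than that of the 4 near copies and close to that of Krt82. In the M21 order it lies beyond Krt82, on the side away from Krt84.

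Among the near copies the ratio of Krt83 to Krt81 in TPM was 0.863, 1.03, 0.980 and 1.37 in wild type libraries and 3.63, 2.50, 2.20, 4.80, 10.1 and 4.46 in mutant libraries, without overlap. The ratio of Krt81 to Krt86 was 1.203 to 1.66 in wild type and 3.65 to 7.21 in mutant libraries. The pair of ratios rests on the authors' division of reads among genes with shared sequence.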
